A study of Mus musculus with 6 samples.

Results

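The collagen genes of the mouse genome that a 1-colour Agilent expression array measures are described here in a glioblastoma stem cell line after knockdown of Ggct. Members were all non-control probes whose transcript carried a gene symbol of the form Col, digits, a, digits. 44 collagen genes, on 67 probes, met this rule among 22907 named genes and 56593 probes with values on the array. Total RNA of 6 samples was profiled, 3 from Ggct-knockdown cells (mGGCTsh3 in the titles) and 3 from control cells (NT in the titles). The line was derived as neurospheres from mouse glioblastomas induced with an SB transposon and was kept in serum-free neural stem cell medium with EGF and bFGF. Cells of both groups had been transduced with lentivirus, which carried a short hairpin RNA against Ggct in the knockdown and a non-target hairpin in the control. The titles name 1 line and 1 hairpin against Ggct, so effects of the hairpin itself could not be separated from those of losing Ggct. Each knockdown sample shares the day in its title with 1 control sample, which gives 3 pairs. Nothing else in the labels says that samples of a group were separate cultures, and p-values therefore reflect only how far these arrays differ, which may be technical in part.

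Collagens are secreted or membrane-bound proteins whose chains wind into triple helices. Fibrillar collagens assemble into the fibrils of connective tissue, type IV collagens form the meshwork of basement membranes, FACIT collagens attach to fibril surfaces, and transmembrane collagens sit in the plasma membrane. In the brain, fibrillar collagens are largely limited to blood vessels and meninges, and the basement membranes of vessels hold most of the type IV collagen. Chains are hydroxylated and folded in the endoplasmic reticulum, trimmed outside the cell, crosslinked, bound by receptors and degraded by metalloproteinases and cathepsins.

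Values are log2 signals relative to the 75th percentile of the same array, so a value of 0 is the signal at that percentile. Ggct, which encodes gamma-glutamylcyclotransferase, had 0.22, 0.91 and 0.70 on the knockdown arrays, against 3.32, 3.72 and 3.70 on the control arrays. It fell to 12.7% of control (log2 fold change -2.97 ± 0.20, SE; limma adjusted p = 0.00314). Between 54.5% and 56.8% of probes were well above background on an array, no spot was saturated, and the number of arrays limits the precision. On the first principal component over all tested genes, knockdown replicates 1, 2 and 3 lay at 46.6, 9.1 and 15.4. Replicate 1 thus stood apart, and calls that changed without it are given with that value. Of 10 neural stem cell or glioma markers, 8 were tested and 0 passed. Sox2 and Nes, which mark neural stem cells, were above background on all 6 arrays, Gfap on 2 of 3 knockdown and 2 of 3 control arrays, and Olig2 on none. The median log2 fold change of the 8 was -0.30. The groups did not overlap for Sox2 (-0.34), Nes (-0.64) and Msi1 (-0.26), which were lower in all 3 pairs, or for Prom1 (1.03), which was higher in all 3, with limma adjusted p-values of 0.105 to 0.283. The part of these markers in the collagen values was not tested.

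The share of collagen genes detected was close to that of all named genes, and it ranged widely between collagen classes. A gene was tested when 1 of its probes was well above background on 3 or more of the 6 arrays. That held for 27 of the 44 collagen genes (61.4%), against 61.8% of all named genes on the array. Of the 44, 24 had a probe above background on all 6 arrays and 15 had none above background on any array. Fibrillar genes were tested in 9 of 11 cases, type IV genes in 4 of 6 and beaded-filament (type VI) genes in 4 of 6. Only 3 of 9 FACIT genes, 2 of 4 transmembrane genes, 1 of 3 network-forming genes and 1 of 2 multiplexin genes were tested. The remaining class holds Col7a1, Col26a1 and Col28a1, all 3 tested.

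**Figure D1:**
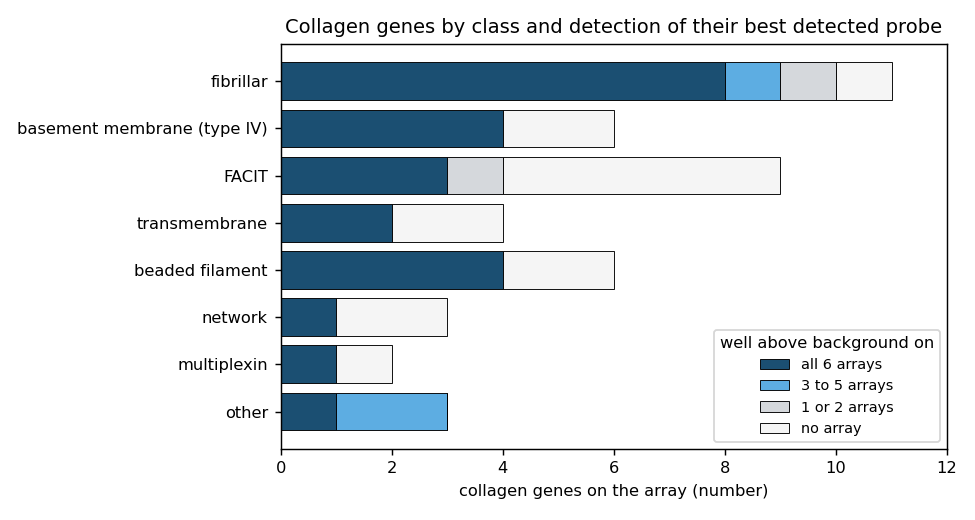
Number of collagen genes on the array in each class (x axis), split by the number of arrays on which the best detected probe of the gene was well above background (shades). In the fibrillar class 8 of 11 genes were detected on all 6 arrays, and in the FACIT class 3 of 9 were.

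The 17 collagen genes that could not be tested were Col11a2 and Col24a1 among the fibrillar genes, Col4a3 and Col4a4 of type IV, and the FACIT genes Col9a1, Col9a3, Col12a1, Col14a1, Col19a1 and Col20a1. The others were the transmembrane genes Col13a1 and Col23a1, the beaded-filament genes Col6a5 and Col6a6, the network genes Col8a2 and Col10a1, and the multiplexin Col15a1. Of these, 15 were on no array above background. A Col11a2 probe was above background on 2 knockdown arrays and 0 control arrays, with mean values of -5.00 in the knockdown and -5.46 in the control. By the comparison described below, this probe, for a chain of type XI collagen, was 1.25-fold higher in the knockdown, with no test. The other Col11a2 probe was above background on no array, and its groups overlapped. Col20a1 was above background on 0 knockdown arrays and 1 control array. For such comparisons, each array of the dimmer group took the higher of the probe's own signal and the lowest signal well above background. The mean of the brighter group was set against these values. That mean took in arrays that were not above background, so the fold is not a lower bound.

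Among the 27 tested collagen genes, 2 fibrillar genes rose and 1 fibrillar gene fell in the knockdown. Col1a2 and Col5a2 were higher and Col27a1 was lower at a limma adjusted p below 0.05, with Benjamini-Hochberg adjustment over 14151 tested genes. Across all tested genes 4.57% were higher, 2.84% were lower and 7.41% passed in either direction, and counts of this size among 27 genes do not set the collagens apart from the rest of the array. An unadjusted p below 0.05 was found for 8 of the 27, against 24.8% of all genes. The arrays of the groups did not overlap for 7 of the 27 (25.9%), 4 higher and 3 lower in the knockdown, against 32.4% of all genes. All 3 pairs differed in the same direction for 12 of the 27 (44.4%), against 48.7% of all genes. The median log2 fold change of the 27 was 0.10, against 0.02 over all genes tested, and 17 values were above 0 and 10 below. The median over the 27 genes was 0.35 in pair 1, 0.16 in pair 2 and -0.08 in pair 3, and it was -0.01 when knockdown replicate 1 was left out.

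**Figure D2:**
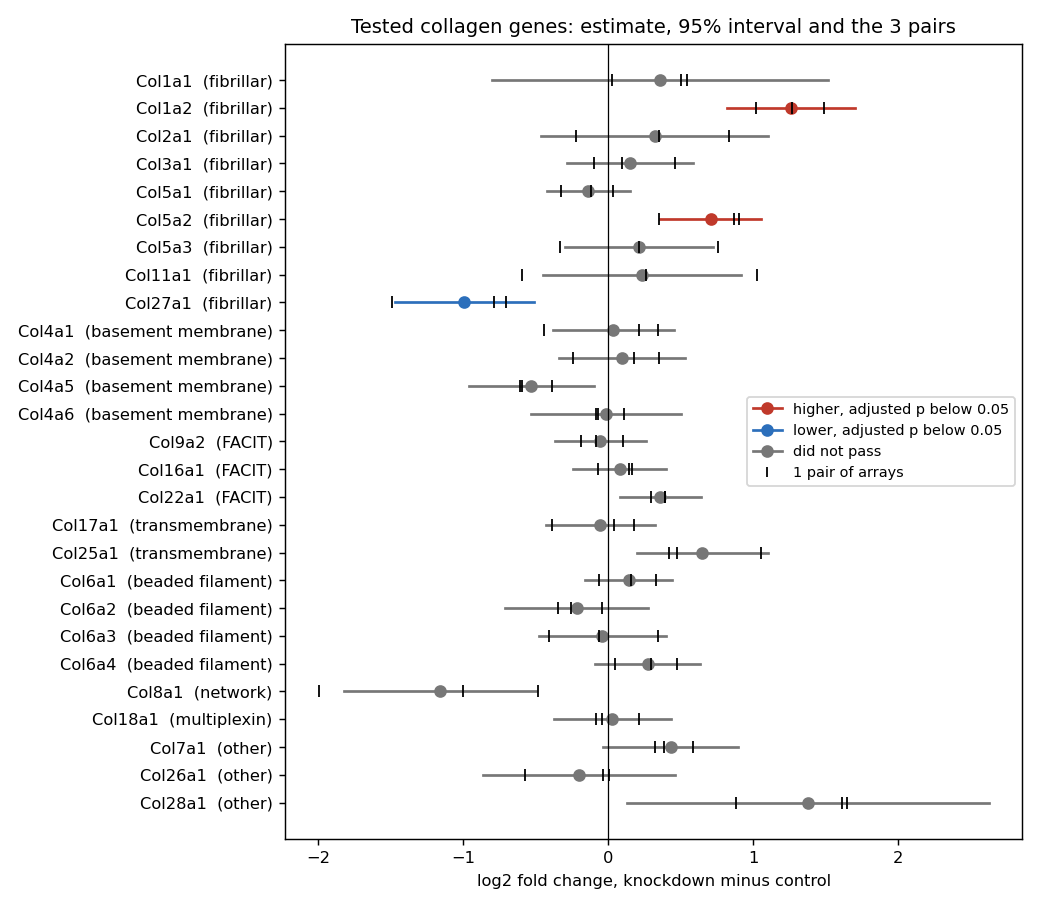
Log2 fold change (x axis, knockdown minus control) of each tested collagen gene, with its 95% interval from limma (line) and the differences of the 3 pairs (ticks). Col1a2 at 1.26 and Col5a2 at 0.71 rose, Col27a1 at -0.99 fell, and the other 24 genes did not pass.

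Type I collagen, the main protein of bone, tendon and skin, is built from the chains of Col1a1 and Col1a2. Col1a2 had -2.82, -2.66 and -2.50 on knockdown arrays 1, 2 and 3, against -4.09, -4.15 and -3.52 on control arrays 1, 2 and 3. All 3 knockdown arrays lay above all 3 control arrays, and the group means were -2.66 ± 0.16 in the knockdown and -3.92 ± 0.35 in the control (SD, n = 3 each). Col1a2 rose 2.40-fold, a log2 fold change of 1.26 ± 0.19 (SE; 95% interval 0.82 to 1.70; limma adjusted p = 0.0149). As this is bulk RNA, a difference in the number of cells that make a transcript and in the amount per cell cannot be told apart. The signal was dim, with the lowest array 0.96 log2 units above the lowest signal called well above background. A normexp background correction was also tried, with an offset of 50 intensity units that narrows the log2 differences of dim probes. With normexp the log2 fold change of Col1a2 was 0.42 and Col1a2 did not pass (limma adjusted p = 0.0938). It also did not pass without knockdown replicate 3 (limma adjusted p = 0.0648), without control replicate 1 (0.0680) or without control replicate 2 (0.0661), with log2 fold changes of 1.18, 1.18 and 1.15.

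Col1a1 had -4.61, -4.17 and -3.28 on the knockdown arrays, against -5.11, -4.72 and -3.31 on the control arrays. Replicate 3 was the highest of its group on both sides, and the groups overlapped. The log2 fold change of Col1a1 was 0.36 ± 0.50 (SE; 95% interval -0.80 to 1.52; limma adjusted p = 0.718), a wide interval that includes 0. The 2 Col1a1 probes, each spotted 10 times on the array, were above background on 3 knockdown arrays and 2 control arrays, and the second probe gave a log2 fold change of 0.48. On control replicate 1, 3 of 10 spots of the first probe and 1 of 9 usable spots of the second were above background. The estimate changed sign to -0.01 without knockdown replicate 3 or without control replicate 1.

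The promoter window of Col1a2, which runs from 250 bases before to 50 bases after the start site, is shown because Col1a2 had the lowest p-value of the collagen genes. It lies at chr6:4505368-4505667 on the plus strand of GRCm38.p6, is 61% G or C, and is taken from RefSeq. Capitals mark matches to the GC box (GGGCGG, bound by Sp-family factors) and the CCAAT box (CCAAT, bound by NF-Y), searched on both strands.
Col1a2 promoter: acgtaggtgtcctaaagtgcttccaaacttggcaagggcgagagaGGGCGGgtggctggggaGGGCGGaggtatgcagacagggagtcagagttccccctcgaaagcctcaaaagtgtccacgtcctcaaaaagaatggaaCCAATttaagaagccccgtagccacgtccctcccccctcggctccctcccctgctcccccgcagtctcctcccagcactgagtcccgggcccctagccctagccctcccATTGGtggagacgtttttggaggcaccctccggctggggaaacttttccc
The GC boxes start at -205 and -188 relative to the start site and the CCAAT boxes at -109 and, on the reverse strand, at 0. Neither the AP-1 motif (TGANTCA, bound by Fos and Jun factors and searched because the series title names c-Jun) nor the TATA motif (TATAAA) is in this window. The windows of Col1a1 and Col5a2 are not shown.

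Type V collagen lies inside type I fibrils and controls their diameter, and its commonest trimer joins chains of Col5a1 and Col5a2. Col5a2 had -0.62, -0.94 and -0.48 on the knockdown arrays, against -1.49, -1.29 and -1.39 on the control arrays. The groups did not overlap, and the pairs differed by 0.87, 0.35 and 0.90. Col5a2 rose 1.63-fold, a log2 fold change of 0.71 ± 0.15 (SE; 95% interval 0.36 to 1.05; limma adjusted p = 0.0350). When the pair entered as a replicate block it missed the threshold (limma adjusted p = 0.0780). Col5a2 passed in 1 of the 6 fits that left out an array, the one without knockdown replicate 2. The limma adjusted p in the other 5 ran from 0.0593 to 0.125, with log2 fold changes of 0.61 to 0.76. Without knockdown replicate 1 Col5a2 did not pass, at a log2 fold change of 0.68 (limma adjusted p = 0.0593).

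Col5a1 had 4.60, 4.40 and 4.32 on the knockdown arrays, against 4.57, 4.52 and 4.64 on the control arrays. The groups overlapped, and its log2 fold change was -0.14 ± 0.12 (SE; 95% interval -0.42 to 0.15; limma adjusted p = 0.546). Col5a3, the third type V chain, had a log2 fold change of 0.21 (SE 0.22, adjusted p = 0.607 by limma), with pair differences of 0.76, 0.21 and -0.33.

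Col27a1 encodes a fibrillar chain known from cartilage. It had -4.92, -4.77 and -4.89 on the knockdown arrays, against -4.22, -3.98 and -3.40 on the control arrays. The knockdown arrays had an SD of 0.08 and lay below every control array, while the control arrays had an SD of 0.42. Col27a1 fell to 50.2% of control, a log2 fold change of -0.99 ± 0.21 (SE; 95% interval -1.47 to -0.51; limma adjusted p = 0.0340). The lowest array was only 0.37 log2 units above the lowest signal called well above background. Col27a1 missed the threshold with the replicate block (limma adjusted p = 0.0604) or with quantile normalization (0.0649), and with normexp its log2 fold change was -0.41 (0.114). Of the 6 fits that left out an array, it passed only in the one without control replicate 3, at a log2 fold change of -0.76. Without knockdown replicate 1 it had -0.96 (limma adjusted p = 0.0572).

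The Col27a1 window, shown as that of the fibrillar gene that fell, lies at chr4:63215162-63215461 on the plus strand of GRCm38.p6 (RefSeq), with GC boxes in capitals.
Col27a1 promoter: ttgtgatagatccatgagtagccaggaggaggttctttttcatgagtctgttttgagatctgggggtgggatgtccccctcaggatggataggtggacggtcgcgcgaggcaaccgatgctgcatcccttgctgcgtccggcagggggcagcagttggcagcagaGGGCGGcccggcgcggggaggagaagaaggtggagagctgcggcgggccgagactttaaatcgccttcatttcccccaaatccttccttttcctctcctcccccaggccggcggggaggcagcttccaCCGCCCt
It is 61.7% G or C, and the GC boxes start at -85 and, on the reverse strand, at 43. No CCAAT box, AP-1 motif or TATA motif is in it.

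The other fibrillar genes had values on both sides of 0 over the pairs. Col3a1, the chain of type III collagen in vessel walls and hollow organs, had 6.76, 6.16 and 6.40 on the knockdown arrays, against 6.30, 6.07 and 6.50 on the control arrays. The groups overlapped, with a log2 fold change of 0.15 ± 0.19 (SE; 95% interval -0.28 to 0.59; limma adjusted p = 0.673). Col2a1, the chain of cartilage type II collagen, had a log2 fold change of 0.32 (95% interval -0.47 to 1.11) that was 0.04 without control replicate 2, 0.08 without knockdown replicate 1 and 0.61 without control replicate 3. Col11a1, a chain of type XI collagen, had 0.23 (-0.45 to 0.92). The Col11a1 pairs differed by 1.03, 0.26 and -0.59, and without knockdown replicate 1 its value was -0.09. The median log2 fold change of the 9 tested fibrillar genes was 0.23, with 7 values above 0 and 2 below.

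**Figure D3:**
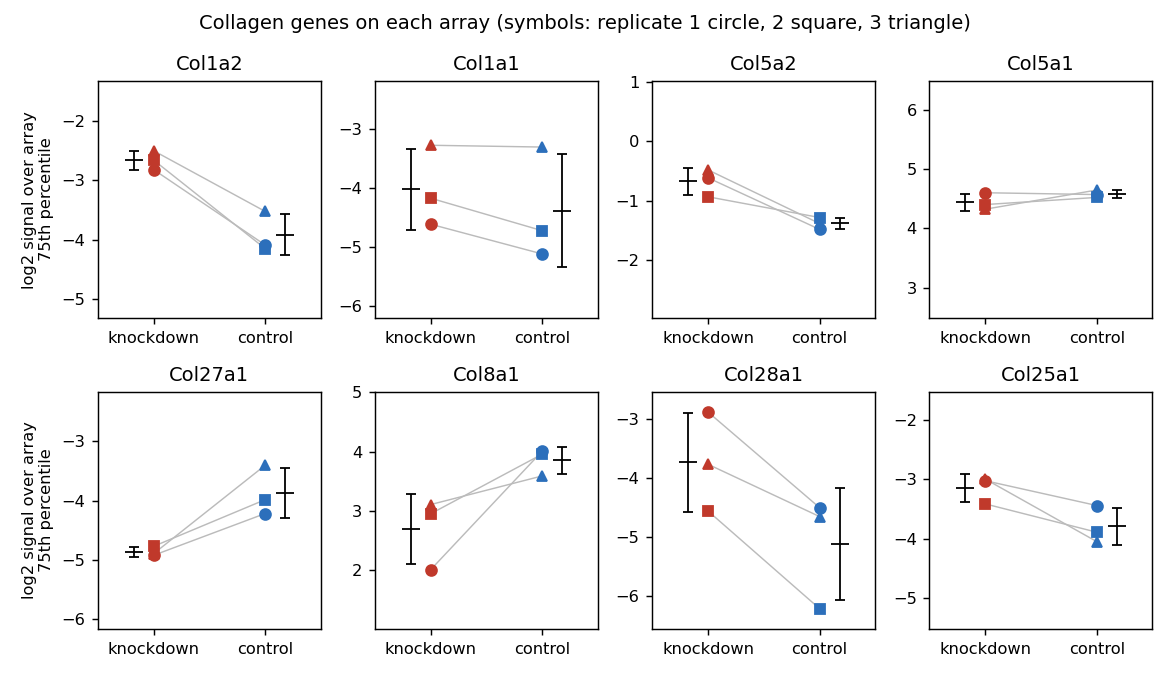
Log2 signal relative to the 75th percentile of the array (y axis, each panel 4 units high) for 8 collagen genes on the knockdown arrays (red) and the control arrays (blue). Grey lines join the arrays of a pair and bars are the mean ± SD of 3 arrays. The groups are apart for Col1a2, Col5a2, Col27a1, Col8a1 and Col25a1 and overlap for Col1a1, Col5a1 and Col28a1.

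No type IV gene passed the test. Col4a1 and Col4a2 encode the chains of the trimer found in nearly all basement membranes. Col4a1 had 3.83, 3.52 and 3.26 on the knockdown arrays, against 3.49, 3.30 and 3.70 on the control arrays. Col4a2 had 3.31, 2.96 and 2.59 on the knockdown arrays, against 2.96, 2.77 and 2.83 on the control arrays. Both overlapped between groups, with log2 fold changes of 0.04 for Col4a1 (95% interval -0.38 to 0.46) and 0.10 for Col4a2 (-0.34 to 0.53). The 2 genes are transcribed in opposite directions from neighbouring starts, and their RefSeq promoter windows share 78 bases. In both genes pairs 1 and 2 were above 0 and pair 3 was below, at 0.34, 0.21 and -0.45 for Col4a1 and 0.35, 0.18 and -0.25 for Col4a2.

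Col4a5 and Col4a6 encode chains that form a separate type IV network, found in smooth muscle and some epithelia. Col4a5 had 1.64, 1.09 and 1.1 on the knockdown arrays, against 2.02, 1.68 and 1.71 on the control arrays. The groups did not overlap, and the log2 fold change was -0.53 ± 0.19 (SE; 95% interval -0.96 to -0.10), which did not pass (limma adjusted p = 0.127). Without knockdown replicate 1 it was -0.71 and passed (limma adjusted p = 0.0375). A second kept Col4a5 probe gave -0.38 (SE 0.42), with overlapping groups and pair differences of 0.23, -0.56 and -0.81. Col4a6 had 3.0, 2.32 and 2.35 on the knockdown arrays, against 2.89, 2.39 and 2.44 on the control arrays, and its log2 fold change was -0.01 (95% interval -0.53 to 0.50). Its sign turned under other scalings, where its value was within 0.01 of 0.

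Of the FACIT genes, Col9a2, Col16a1 and Col22a1 were tested and none passed. Col22a1, which marks junctions between tissues such as that of muscle and tendon, had 2.02, 2.13 and 2.17 on the knockdown arrays, against 1.63, 1.73 and 1.88 on the control arrays. The groups did not overlap and the pairs differed by 0.39, 0.39 and 0.30, but the log2 fold change of 0.36 ± 0.12 (SE; 95% interval 0.08 to 0.64) did not pass (limma adjusted p = 0.115). Its second kept probe gave 0.30 (SE 0.35), with overlapping groups and pair differences of -0.45, 0.58 and 0.77. Col16a1, which associates with fibrils in several tissues, had 3.41, 3.38 and 3.05 on the knockdown arrays, against 3.27, 3.21 and 3.12 on the control arrays, and its groups overlapped. Its log2 fold change was 0.08 (95% interval -0.24 to 0.40), and a second, dimmer probe gave 0.44. Col9a2, a chain of cartilage type IX collagen, had -0.05 (95% interval -0.37 to 0.26).

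Of the transmembrane genes, Col25a1 and Col17a1 were tested and neither passed. Col25a1, which is expressed in neurons and whose shed ectodomain binds amyloid, had -3.02, -3.41 and -2.99 on the knockdown arrays, against -3.44, -3.89 and -4.05 on the control arrays. The groups did not overlap, by a margin that is small beside the spread of the control arrays. The log2 fold change of Col25a1 was 0.65 ± 0.19 (SE; 95% interval 0.20 to 1.1; limma adjusted p = 0.0894), and with normexp it was 0.30 (0.291). Its second probe was above background on 2 knockdown arrays and 0 control arrays, with means of -5.12 in the knockdown and -5.99 in the control. By the comparison used for Col11a2, this probe was 1.15-fold higher in the knockdown. That fold is not a lower bound, and the probe was not tested for the gene. Col17a1, a component of hemidesmosomes in skin, had -5.01, -4.52 and -4.67 on the knockdown arrays, against -4.63, -4.56 and -4.85 on the control arrays. Its groups overlapped, with a log2 fold change of -0.06 (95% interval -0.43 to 0.32).

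The genes of type VI collagen, which forms beaded filaments around cells, did not pass either. Col6a3 had 5.03, 4.66 and 4.87 on the knockdown arrays, against 4.68, 4.72 and 5.27 on the control arrays, with a log2 fold change of -0.04 (95% interval -0.48 to 0.40). Col6a1 had 4.15, 4.2 and 4.1 on the knockdown arrays, against 3.82, 4.04 and 4.16 on the control arrays, with a log2 fold change of 0.14 (95% interval -0.16 to 0.44). The groups overlapped for both genes. Col6a2, the third chain of the common type VI trimer, had -0.22 (95% interval -0.71 to 0.28), and Col6a4, a chain that can take the place of Col6a3, had 0.27 (-0.09 to 0.64). A second kept Col6a3 probe gave -0.36 (SE 0.44), the same sign as the first.

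Col8a1 encodes a short-chain collagen that forms networks in vessel walls and under the corneal endothelium. It had 2.01, 2.95 and 3.11 on the knockdown arrays, against 4.01, 3.96 and 3.59 on the control arrays. All 3 knockdown arrays lay below the control arrays, and the pairs differed by -2.0, -1.0 and -0.48, with knockdown replicate 1 the lowest array. The log2 fold change of Col8a1 was -1.16 ± 0.29 (SE; 95% interval -1.83 to -0.50), a level of 44.7% of control, just outside the threshold (limma adjusted p = 0.0523). It passed when the fit kept only probes above background on all 6 arrays (limma adjusted p = 0.0430), with normexp (0.0248) and without knockdown replicate 1 (-0.82; 0.0343), and with the replicate block the adjusted p was 0.0963. Every array was 7.51 log2 units or more above the lowest signal called well above background, so dimness does not limit this value. No probe of Col8a2, which encodes the partner chain, was above background on any array.

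The Col8a1 window is shown because its arrays were apart at a bright signal. It lies at chr16:57754688-57754987 on the minus strand of GRCm38.p6 (RefSeq), with GC boxes in capitals.
Col8a1 promoter: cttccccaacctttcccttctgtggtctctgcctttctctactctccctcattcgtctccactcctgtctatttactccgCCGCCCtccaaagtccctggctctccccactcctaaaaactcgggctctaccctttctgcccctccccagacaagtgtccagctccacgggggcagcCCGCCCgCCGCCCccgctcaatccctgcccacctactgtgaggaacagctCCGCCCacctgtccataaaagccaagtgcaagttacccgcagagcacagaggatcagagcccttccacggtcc
It is 60.3% G or C, all 4 GC boxes are on the reverse strand of the window, and no CCAAT box, AP-1 motif or TATA motif is in it. The RefSeq table held 38 windows of 35 of the 44 collagen genes. Of these, 23 held a GC box (60.5%), against 35.7% of all 32851 windows in the table. 13 held a CCAAT box (34.2%, against 37.4%), 5 a TATA motif (13.2%, against 13.6%) and 1, that of Col6a1, an AP-1 motif (2.63%, against 7.81%). These matches are a description of the letters in the windows, and binding at them was not measured here.

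Among the remaining genes, Col18a1, a multiplexin of basement membranes that carries the endostatin fragment, had 6.64, 6.56 and 6.38 on the knockdown arrays, against 6.73, 6.60 and 6.16 on the control arrays. Its groups overlapped, with a log2 fold change of 0.03 (95% interval -0.37 to 0.43), and with quantile normalization its sign turned, at -0.06. Col7a1, which forms anchoring fibrils under epithelia, had -0.21, 0.13 and 0.19 on the knockdown arrays, against -0.79, -0.20 and -0.19 on the control arrays. Its pairs were all above 0, but the groups overlapped and the log2 fold change of 0.43 ± 0.20 (SE; 95% interval -0.03 to 0.89) did not pass (limma adjusted p = 0.234). Col26a1 had a log2 fold change of -0.20 (95% interval -0.86 to 0.46).

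Col28a1, a chain known from peripheral nerve, had -2.89, -4.56 and -3.77 on the knockdown arrays, against -4.50, -6.21 and -4.65 on the control arrays. Both groups spread over more than 1 log2 unit and overlapped, but every knockdown array lay above the control array of its pair, by 1.61, 1.65 and 0.88. The log2 fold change was 1.38 ± 0.54 (SE; 95% interval 0.13 to 2.63) and did not pass without the block (limma adjusted p = 0.164). With the pair as a replicate block it passed (limma adjusted p = 0.0356). With normexp it was 0.43 (limma adjusted p = 0.181), and without control replicate 2 it was 0.84 (0.371). The probe was above background on 3 knockdown arrays and 2 control arrays, and a second probe on 1 knockdown array and 0 control arrays.

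Probes of 1 gene were compared where several existed. Of 22 collagen genes with several probes, 5 had both probes kept, 7 had 1 kept and 10 had none kept. The 5 genes with both kept were Col1a1, Col4a5, Col6a3, Col16a1 and Col22a1, and both probes had the same sign in 5 of 5. The second probe, always the dimmer, had SEs of 0.35 to 0.57, and no probe of these genes passed by itself. When every kept probe on the array was tested by itself, 1 of the 32 kept collagen probes passed, that of Col1a2, against 1.75% of the 31804 kept probes.

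Chains that join in 1 trimer were also compared within arrays, as the difference of their log2 values, which cancels the scaling of the array. Of 11 chain pairs, 6 had both chains tested. The Col5a1 minus Col5a2 difference was 5.12 ± 0.28 in the knockdown and 5.96 ± 0.14 in the control (SD, n = 3 each), a change of -0.85 with no overlap between groups. The Col4a5 minus Col4a6 difference was -1.28 ± 0.07 in the knockdown and -0.77 ± 0.09 in the control (SD, n = 3 each), a change of -0.52, also with no overlap. With 3 arrays against 3, the exact two-sided permutation test cannot give a p below 0.1, which both pairs reached (exact permutation p = 0.1, 0.3 after Benjamini-Hochberg adjustment over the 6 pairs). The change was -0.90 for Col1a1 minus Col1a2 (exact permutation p = 0.2), 0.36 for Col6a1 minus Col6a2 (0.2), 0.18 for Col6a1 minus Col6a3 (0.5) and -0.06 for Col4a1 minus Col4a2 (0.8). For these 4 pairs the groups overlapped, and with the mean of the kept probes of each gene the Col6a1 minus Col6a3 change was 0.34.

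Of 62 genes that make, trim, crosslink, bind or degrade collagen, 46 were tested, and 4 rose and 3 fell in the knockdown, with a median log2 fold change of 0.09. Over all tested genes the shares were 4.57% higher and 2.84% lower and the median was 0.02, and the counts in these lists of 2 to 24 tested genes are read as nothing particular to them. Of 25 genes of synthesis, folding and export, 24 were tested and 1 fell. Plod2, the lysyl hydroxylase of the telopeptides whose products enter stable crosslinks, had 1.30, 1.43 and 1.80 on the knockdown arrays, against 2.25, 2.51 and 2.81 on the control arrays. The groups were apart and the pairs differed by -0.95, -1.07 and -1.02. Plod2 fell by 1.01 on the log2 scale (± 0.19, SE; limma adjusted p = 0.0258). Serpinh1, the collagen chaperone Hsp47, had a log2 fold change of 0.53 and did not pass (limma adjusted p = 0.0683), and the prolyl hydroxylase subunits P4ha1, P4ha2, P4ha3 and P4hb ranged from -0.06 to 0.30 without passing.

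Of 8 genes of propeptide cleavage, 5 were tested, and 1 rose and 1 fell (4.57% and 2.84% of all tested genes). Pcolce, an enhancer of the C-propeptidase, had a log2 fold change of 0.56 (SE 0.13, adjusted p = 0.0478 by limma). Pcolce2, on the same list, went the other way, at -0.41, and did not pass (limma adjusted p = 0.0624). Its knockdown arrays all lay below its control arrays. Adamts14, an N-propeptidase of fibrillar procollagens, had a log2 fold change of -0.73 (SE 0.16, adjusted p = 0.0353 by limma). Bmp1, the C-propeptidase itself, had 0.08 and did not pass. Of 5 lysyl oxidase genes, which crosslink collagen, Loxl2 (-0.49) and Loxl3 (0.62) were tested and did not pass, while Lox, Loxl1 and Loxl4 were on no array above background.

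Of 10 receptor and uptake genes, 7 were tested and 1 fell, against 2.84% of all tested genes. Mrc2, the endocytic receptor Endo180 that takes up collagen fragments, had -0.27, -0.15 and -0.65 on the knockdown arrays, against 0.65, 0.47 and 0.36 on the control arrays. The groups were apart, with a log2 fold change of -0.85 (SE 0.16, adjusted p = 0.0268 by limma), which was -0.58 as a mean of its probes (0.0533). The integrin chains and discoidin receptors tested, Itga1, Itga2, Itga10, Itgb1, Ddr1 and Ddr2, ranged from -0.41 to 0.72 and did not pass.

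Of 8 collagen-binding proteoglycans and Sparc-family genes, 4 were tested and 1 rose, against 4.57% of all tested genes. That gene was Sparcl1, with a log2 fold change of 0.79 (SE 0.16, adjusted p = 0.0334 by limma). Of 6 collagenases, gelatinases and cathepsin K, 4 were tested and 2 rose, against 4.57% of all tested genes, a share that so few genes cannot be set against. Mmp2, a gelatinase that also cleaves type IV collagen, had a log2 fold change of 0.83 (SE 0.18, adjusted p = 0.0388 by limma), and Ctsk, the collagen-degrading cathepsin K, one of 0.60 (SE 0.14, adjusted p = 0.0442 by limma). Mmp14 (-0.41) and Mmp9 (-0.21) did not pass. With the replicate block Pcolce (limma adjusted p = 0.0668), Adamts14 (0.0603), Sparcl1 (0.0607) and Ctsk (0.0991) did not pass. Pcolce also missed the threshold with quantile normalization (0.0770) and with the mean of its probes (0.0581), and Ctsk with quantile normalization (0.0590) and with normexp, where it had 0.29 (0.226). Of these 7 genes, Plod2 and Mrc2 passed in limma without knockdown replicate 1, where Pcolce (adjusted p = 0.0838), Sparcl1 (0.0572), Adamts14 (0.0618), Mmp2 (0.0688) and Ctsk (0.0756) did not. Of the same genes, Sparcl1, Adamts14 and Mrc2 passed without knockdown replicate 2. None of the 7 passed without knockdown replicate 3 or without control replicate 1, 2 or 3.

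**Figure D4:**
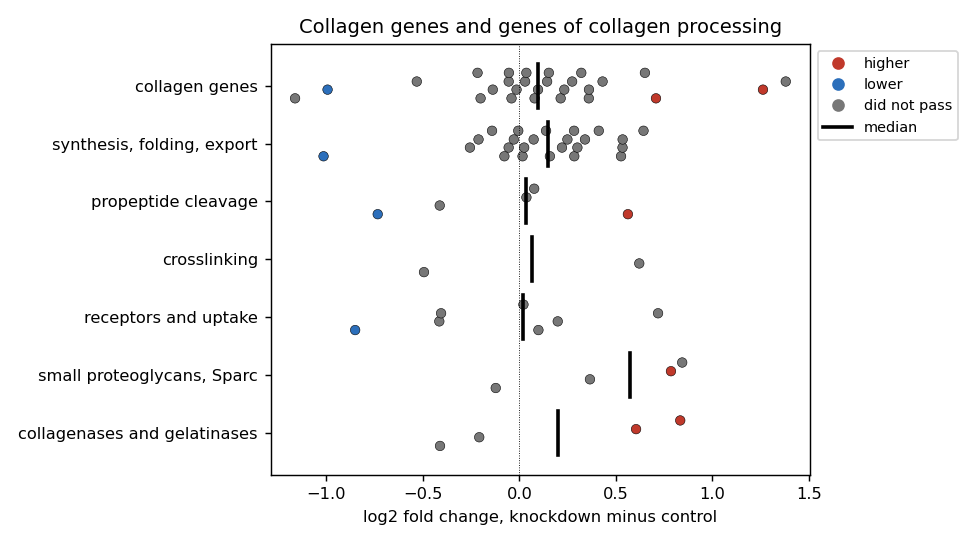
Log2 fold change (x axis, knockdown minus control) of the tested collagen genes and of the tested genes of collagen processing, by list. Each point is a gene, coloured by the limma call at an adjusted p below 0.05, and the black line is the median of the list. The medians run from 0.02 for receptors and uptake to 0.58 for the proteoglycan list.

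Markers of other cells that a tumour-derived culture could hold were measured beside these genes, given as summed signals relative to the 75th percentile of each array. Of 11 fibroblast or mural cell markers, 7 were tested and 0 passed, and their sum was 26.5 to 41.3 on the knockdown arrays and 32.0 to 46.6 on the control arrays. Rgs5, Kcnj8 and Abcc9, which mark pericytes, and Lum, which marks fibroblasts, were on no array above background. Acta2, Thy1, Fap, Pdgfrb, Tagln and Dcn were above background on all 6 arrays, and Des on 3 knockdown and 2 control arrays. Acta2 had means of 4.28 in the knockdown and 4.39 in the control, and Thy1 of 3.10 and 3.27. Dcn, which is also on the proteoglycan list, had a log2 fold change of 0.84 (limma adjusted p = 0.0624), and Fap, a marker of activated fibroblasts, one of -0.85 (0.0959). Of 7 endothelial markers 2 were tested and 0 passed, with sums of 0.22 to 0.31 in the knockdown and 0.19 to 0.26 in the control, and Kdr and Cldn5 were on no array above background. Pecam1 and Cdh5 were above background on all 6 arrays, while Tek, Esam and Emcn were above background on 1 knockdown array each and on 0 control arrays. Of these, Esam had -4.50, -5.92 and -5.44 on the knockdown arrays, against -7.17, -6.47 and -6.62 on the control arrays, with no overlap and no test. The highest value of Tek, of Esam and of Emcn was that of knockdown replicate 1. Of 7 microglia or macrophage markers 2 were tested and 0 passed, with sums of 9.69 to 12.7 in the knockdown and 9.88 to 16.4 in the control, and Ptprc, Aif1, Cx3cr1 and C1qa were on no array above background. Itgam, with means of 3.43 in the knockdown and 3.60 in the control, and Csf1r were above background on all 6 arrays, and Tyrobp on 1 knockdown array and 0 control arrays. The part of such cells in the collagen values was not tested.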

How the data were processed

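The deposited scanner files hold background-subtracted intensity values per spot, written by Agilent Feature Extraction 11.0.1.1 for an array design annotated on mm9, per the file headers. The authors' deposited value table holds log2 values, which equal the log2 processed signal minus 1 constant per array within 0.01 for all 56593 probes. Its column medians ran from -4.47 to -4.22. All arrays share 1 slide and scan day.

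Outlier spots were left out, spots of a probe were averaged, and 12 of 56605 probes without usable spots were dropped. The 75th percentile of the log2 probe values of each array (9.05 to 9.76 log2 units) was subtracted. Transcript accessions were matched without version to RefSeq (GRCm38.p6), which named 32994 probes (58.3%) and left 23611 unnamed. Probes were kept when well above background on at least 3 of 6 arrays, and 1 probe per gene, that of highest mean, entered the test. Groups were compared over 14151 genes with limma 3.58.1 in R 4.3.3 (lmFit, eBayes, two-sided, Benjamini-Hochberg adjustment), and fold changes are knockdown minus control.

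Pairs come from the day in the titles. Deviations from the group means correlated within pairs at -0.025, 0.546 and -0.196. The block, other scalings and background corrections, filters, probe choices and fits without single arrays were tried as alternatives. Values on every array are given for genes past the threshold and the 2 genes of highest mean in each class, and for further genes chosen after their values were seen. The members, classes and lists were chosen with earlier results of these data known. Scripts were tested on simulated data.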

Additional observations from a re-analysis of the deposited data

How the results depend on the processing

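The number of collagen genes that were higher was 2 in the analysis as reported, with the replicate block and with quantile normalization. It was also 2 with the deposited table, which holds the same signals minus nearly the same constants and is no separate check. It was 1 without a filter on dim probes, 1 with every kept probe tested by itself and 1 with normexp on median signals, an alternative chosen after seeing the data because the files hold no mean signal, and it ran from 0 to 2 in fits without 1 array. The number that were lower was 1 as reported and 0 with the replicate block, 0 with quantile normalization, 0 without a filter and 0 with every probe. It was 2 with probes above background on all 6 arrays and ran from 0 to 2 without 1 array. Of the collagen-processing genes, 4 were higher as reported, 2 with the replicate block, 0 without a filter, 0 with every probe and 0 to 1 without 1 array. Of those genes, 3 were lower as reported, 0 without a filter, 0 with every probe and 0 to 2 without 1 array. With the replicate block Col5a2 and Col27a1 missed the threshold and Col28a1 passed it (limma adjusted p = 0.0780, 0.0604 and 0.0356), and the call of no other tested collagen gene changed. Over all 14151 genes, 1048 passed as reported, 558 with the replicate block, 928 with quantile normalization and 889 with normexp. Without a filter 357 of 22907 genes passed, and with every probe 556 of 31804 probes. Over all genes, 14 passed without control replicate 1, 21 without knockdown replicate 3 and 42 without control replicate 2. Without control replicate 3, knockdown replicate 2 or knockdown replicate 1, 424, 626 and 840 passed. In the fits without 1 array 2581 to 3353 genes had an unadjusted limma p below 0.05. Col5a2 and Col27a1 were the genes that missed the threshold without a filter and with every probe. These settings adjust over more tests, 22907 genes and 31804 probes. With every probe the unadjusted limma p was also larger. It was 0.00285 for Col5a2, against 0.00164 as reported, and 0.00257 for Col27a1, against 0.00154. The cause of these and of the other changes was not tested.

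Genes that did not pass also changed sign or size. With normexp, whose offset narrows the log2 differences of dim probes, Col1a1 had 0.012, Col11a1 0.077, Col6a4 0.10, Col25a1 0.30 and Col28a1 0.43. Col18a1 was at -0.061 with quantile normalization. Col4a6 was at 0.0014 with quantile normalization, 0.0050 with the percentile taken over detected probes and 0.00037 with normexp. In fits without 1 array the log2 fold change ran from -0.088 to 0.54 for Col11a1, -0.16 to 0.085 for Col17a1, -0.14 to 0.15 for Col18a1, -0.011 to 0.90 for Col1a1, -0.45 to 0.10 for Col26a1 and -0.0057 to 0.29 for Col3a1. It ran from -0.11 to 0.18 for Col4a1, -0.083 to 0.28 for Col4a2, -0.24 to 0.14 for Col4a6, -0.014 to 0.44 for Col5a3, -0.15 to 0.15 for Col6a3 and -0.16 to 0.0026 for Col9a2. Dim signal limits Col17a1, Col27a1, Col11a1, Col1a1, Col26a1 and Col28a1, whose lowest arrays lay 0.43, 0.37, 0.23, -0.06, -0.37 and -0.91 log2 units from the lowest signal well above background.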
